A study of Homo sapiens with 6 samples.

Results

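The genes described here are 6 chains of the laminins, LAMA3, LAMA5, LAMB1, LAMB2, LAMB3 and LAMC1, taken by gene symbol from a table of 15832 genes. All 6 were in the table and all 6 passed the filter on low values (mean TPM of 1 or more, which left 10966 genes to test). TPM scales reads to transcript length and to the total of the library. LAMA3 and LAMB3 belong to laminin-332, and the other 4 to laminins such as laminin-511, laminin-521 and laminin-111. LAMA2, LAMA4, LAMB4 and LAMC3 are given beside them. The study sequenced RNA from the established pancreatic cancer line AsPC-1, transfected for 48 h with siControl (3 libraries) or with siVCPIP1, which targets the deubiquitinase gene VCPIP1 (3 libraries), and its title names Hippo/YAP signaling. Both groups were transfected, and no untransfected cells were among the libraries. Neither the siRNA sequences nor the origin of the replicates in separate cultures is stated in the labels, so p-values reflect library-to-library spread, which may be technical.

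Laminins are trimers of an alpha, a beta and a gamma chain that polymerize or anchor in the basement membrane under epithelia. The trimer is put together inside the cell before secretion, so each laminin needs all 3 of its chains. Laminin-332, which contains alpha3 and beta3, holds epithelial cells to the basement membrane through the integrins alpha6-beta4, in hemidesmosomes, and alpha3-beta1. Laminins with alpha5 are the main laminins of mature epithelial basement membranes.

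The members are spread over 5 chromosomes. On GRCh38 (GENCODE release 29), LAMA3 lies on chromosome 18 from 23689443 to 23956222 on the plus strand and LAMB3 on the minus strand of chromosome 1 from 209614870 to 209652466. LAMA5 lies on chromosome 20 from 62307955 to 62367312, LAMB1 on chromosome 7 from 107923799 to 108003255 and LAMB2 on chromosome 3 from 49121114 to 49133118, all on the minus strand. LAMC1 lies on chromosome 1 from 183023460 to 183145592 on the plus strand. TPM values are per gene, so the long and short forms of LAMA3, with annotated transcripts of 10661 and 5671 nt, cannot be told apart.

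RefSeq start windows (GRCh38.p14, 250 bases before to 50 after a start, 300 in all) were matched for 6 of 6 members, 8 windows in all. The LAMA3 window and 2 of the 3 LAMB3 windows are shown because these chains belong to the same laminin and fell by unlike amounts. Capitals mark matches to the AP-1 motif TGANTCA, which reads the same on both strands. Shown 5′ to 3′, the LAMA3 window (chr18:23872770-23873069, plus strand) lies inside the gene and covers the starts of the short transcripts, and the LAMB3 windows shown (minus strand) are chr1:209652376-209652675, at the most upstream start, and chr1:209651325-209651624, at the most downstream start. The third, chr1:209652280-209652579, overlaps the upstream window and is not shown.
LAMA3: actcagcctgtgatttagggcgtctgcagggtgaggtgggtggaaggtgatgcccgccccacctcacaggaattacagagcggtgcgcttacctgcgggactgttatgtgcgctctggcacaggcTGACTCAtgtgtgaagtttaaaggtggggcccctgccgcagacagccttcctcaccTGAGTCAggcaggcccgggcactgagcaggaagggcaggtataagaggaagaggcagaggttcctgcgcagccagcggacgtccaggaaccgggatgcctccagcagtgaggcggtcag
LAMB3 upstream start: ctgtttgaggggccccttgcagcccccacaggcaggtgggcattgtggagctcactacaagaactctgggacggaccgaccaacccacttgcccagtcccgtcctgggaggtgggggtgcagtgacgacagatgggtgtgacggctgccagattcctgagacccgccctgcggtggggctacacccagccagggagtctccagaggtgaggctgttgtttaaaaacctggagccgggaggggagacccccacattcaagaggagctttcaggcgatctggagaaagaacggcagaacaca
LAMB3 downstream start: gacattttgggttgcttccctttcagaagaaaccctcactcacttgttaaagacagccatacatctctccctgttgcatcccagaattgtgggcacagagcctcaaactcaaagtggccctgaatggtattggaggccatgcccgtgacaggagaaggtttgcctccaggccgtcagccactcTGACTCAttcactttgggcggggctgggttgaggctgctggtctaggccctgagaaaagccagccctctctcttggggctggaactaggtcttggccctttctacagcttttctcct

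The LAMA3 window held 2 matches, whose first bases lie 125 and 69 bases before the start, and the downstream LAMB3 window held 1, 67 bases before it. The other 6 windows of the members held 0, and 7.71% of all 35116 RefSeq windows held at least 1. The TEAD motif GGAATG, searched on both strands and not overlapping the AP-1 motif, had 0 matches in the 8 windows and at least 1 in 14.03% of all windows. The GC content of the windows was 61.7% for LAMA3, 53.7% to 61.3% for LAMB3 and 58.7% for LAMB2, against 82.7% for LAMA5, 79.0% for LAMC1 and 71.0% for LAMB1. These matches describe letters in the windows, and no binding was measured.

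The libraries of the groups differed throughout the transcriptome. The median TPM over all genes was 6.18 to 7.44 in the siControl libraries and 1.24 to 2.26 in the siVCPIP1 libraries, with siVCPIP1 replicate 3 the highest of its group. Across 10966 genes tested, 66.0% were called lower and 15.0% higher in siVCPIP1 (limma on log2(TPM + 1), adjusted p under 0.05), and the median log2 fold change was -1.12. VCPIP1, the targeted gene, read 2.93, 3.06 and 2.24 TPM in siControl against 0.12, 0.11 and 0.27 TPM in siVCPIP1. It kept 6.08% of its siControl mean. Its log2 fold change was -1.68, and 0.27 once the trend on GC content described further on was removed. On log2(TPM + 1), so low a gene cannot fall as far as -2.25, the median of tested genes of like GC content. The corrected value therefore does not measure the knockdown. With 0.1 TPM added in place of 1, the uncorrected change was -3.45, beside a median of -1.37 over all genes tested. With 1 TPM added, 35.2% of all genes tested, and 75.7% of those of like GC content, had a lower value than VCPIP1. Its change was -1.11 under median-of-ratios scaling and -0.55 under quantile normalization. Of 9 ductal epithelial markers tested, 4 were higher and 5 lower. KRT8 rose from 5495 ± 310.9 to 6852 ± 308.4 TPM, KRT18 from 4923 ± 404.0 to 7496 ± 503.5 TPM, KRT19 from 4229 ± 390.9 to 8365 ± 799.9 TPM and KRT7 from 2.60 ± 0.50 to 6.67 ± 1.36 TPM, although KRT8 (-0.12) and KRT18 (0.16) were not called after quantile normalization. The KRT8 call was also lost without siControl replicate 2 or 3 or siVCPIP1 replicate 1 or 2 (limma, adjusted p from 0.0645 to 0.0886). MUC1, TSPAN8 and CEACAM6 were lower, though MUC1 was not called under median-of-ratios scaling (-0.08). CEACAM6, at 2.38 ± 0.62 TPM in siControl, kept 12.9% of that level. CEACAM6 was called higher after GC and length correction (0.56) and was not called after quantile normalization (-0.14, limma, adjusted p = 0.289). Its change as deposited was -1.36, beside a median of -1.79 for tested genes of like GC content. The part of the limit on low genes in this was not tested. EPCAM fell from 171.9 ± 21.2 to 5.96 ± 4.97 TPM and CDH1 from 28.9 ± 2.41 to 0.677 ± 0.57 TPM (SD, n = 3). Of 6 fibroblast markers in the table, 4 were under 1 TPM in every library, and their summed TPM (45.3 to 69.0 in siControl, 1.5 to 4.51 in siVCPIP1) was almost all LUM. COL1A1 reached at most 1.05 TPM, and DCN and PDGFRA were at or near 0. The part of any of these in the laminin values was not tested.

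In siControl cells, LAMB3, the beta3 chain, was the most abundant of the 6 at 280.7 ± 7.65 TPM (SD, n = 3), far above the others. LAMB2 (43.01 ± 1.98 TPM), LAMA5 (41.97 ± 6.44 TPM), LAMC1 (39.3 ± 2.02 TPM) and LAMB1 (32.5 ± 8.43 TPM) overlapped with their neighbours in this order. LAMA3, the only alpha chain of laminin-332, was the lowest at 24.0 ± 3.13 TPM, and its range reached into that of LAMB1. LAMA2, LAMA4, LAMB4 and LAMC3 did not exceed 0.44 TPM in any library and were not tested. LAMA1 was not among the 15832 genes. TPM depends on the transcript length the authors used, and the forms of LAMA3 differ in length.

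Of the 6 members, 5 were lower in siVCPIP1 and LAMB2 was not called, with 0 higher, where 66.0% of all genes tested were lower. The median log2 fold change of the 6 was -2.16, against -1.12 for all genes. In all 6, every siVCPIP1 library lay below every siControl library, as in 67.9% of genes tested. With 3 libraries against 3, a two-sided exact permutation test gives p = 0.1 for each member, the smallest this design allows. In bulk RNA, fewer cells that express a chain and less RNA per cell cannot be told apart.

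LAMA3 encodes alpha3, the chain that carries the integrin-binding domains of laminin-332. The siControl libraries gave 23.45, 27.43 and 21.25 TPM for LAMA3, and the siVCPIP1 libraries 1.09, 1.11 and 2.35 TPM. The highest siVCPIP1 value, in replicate 3, was far below the lowest siControl value. LAMA3 kept 6.31% of its siControl mean (log2 fold change -3.34 ± 0.24 SE, adjusted p = 2.0e-05 by limma), and 3.81% of all genes tested had a lower value.

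LAMB3 encodes beta3, the beta chain of laminin-332. It was at 272.03, 286.37 and 283.80 TPM in siControl and at 165.65, 162.09 and 245.44 TPM in siVCPIP1. Replicates 1 and 2 of siVCPIP1 were close to each other, and replicate 3 lay nearer to the siControl libraries. The group means were 280.7 ± 7.65 and 191.1 ± 47.1 TPM, and the latter was lower (log2 fold change -0.58 ± 0.17 SE, adjusted p = 0.0118 by limma). LAMB3 thus kept 68.1% of its siControl level while LAMA3 kept 6.31%. The call did not hold without siVCPIP1 replicate 1 (-0.49, limma, adjusted p = 0.0517), and without replicate 3 the change was -0.77.

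The laminin-332 chains LAMA3 and LAMB3 therefore did not move by the same amount. Within a library, where any common scaling cancels, the TPM ratio of LAMB3 to LAMA3 was 10.4 to 13.4 in siControl and 104.4 to 152.0 in siVCPIP1. The ranges did not overlap. They are given with no p, since the chains were chosen with results known.

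LAMA5 encodes alpha5, the alpha chain of laminin-511 and laminin-521. It was at 42.41, 48.17 and 35.32 TPM in siControl and at 10.23, 8.43 and 15.92 TPM in siVCPIP1. Every siVCPIP1 library was below every siControl library, and replicate 3 was again the highest of its group. The log2 fold change was -1.81 (SE 0.24, adjusted p = 0.000126 by limma), with 27.5% of the siControl mean kept. LAMA3 and LAMA5 together summed to 66.0 ± 9.52 TPM in siControl and 13.04 ± 4.61 TPM in siVCPIP1. Of this sum, LAMA5 held 62.4% to 64.4% in siControl and 87.1% to 90.4% in siVCPIP1, and LAMA3 held the rest.

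LAMB1 and LAMB2 encode beta1 and beta2, alternative beta chains of the laminins that contain gamma1. LAMB1 was at 35.40, 39.10 and 23.01 TPM in siControl and at 2.91, 3.16 and 4.54 TPM in siVCPIP1 (log2 fold change -2.87 ± 0.25 SE, adjusted p = 2.05e-05 by limma). The siControl libraries of LAMB1 were spread more widely than those of LAMB2, but all lay far above the siVCPIP1 libraries. LAMB2 was at 44.85, 40.91 and 43.27 TPM in siControl and at 37.68, 33.72 and 38.12 TPM in siVCPIP1. Its groups did not overlap, but the difference was small and did not pass the test (log2 fold change -0.23, 95% interval -0.55 to 0.08, limma, adjusted p = 0.15). The ratio of LAMB2 to LAMB1 within a library was 1.05 to 1.88 in siControl and 8.40 to 12.9 in siVCPIP1. The beta1 and beta2 messages were thus at like levels in siControl cells, and LAMB2 exceeded LAMB1 in every siVCPIP1 library by a larger factor than in any siControl library.

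LAMC1 encodes gamma1, the gamma chain shared by most laminins other than laminin-332. It was at 36.92, 40.42 and 40.43 TPM in siControl and at 5.21, 5.10 and 8.52 TPM in siVCPIP1. The groups were well apart, and the log2 fold change was -2.50 (SE 0.21, adjusted p = 2.05e-05 by limma). The ratio of LAMB1 to LAMC1, partners in laminin-511 and laminin-111, was 0.569 to 0.967 and 0.533 to 0.620, and these ranges overlapped.

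**Figure D1:**
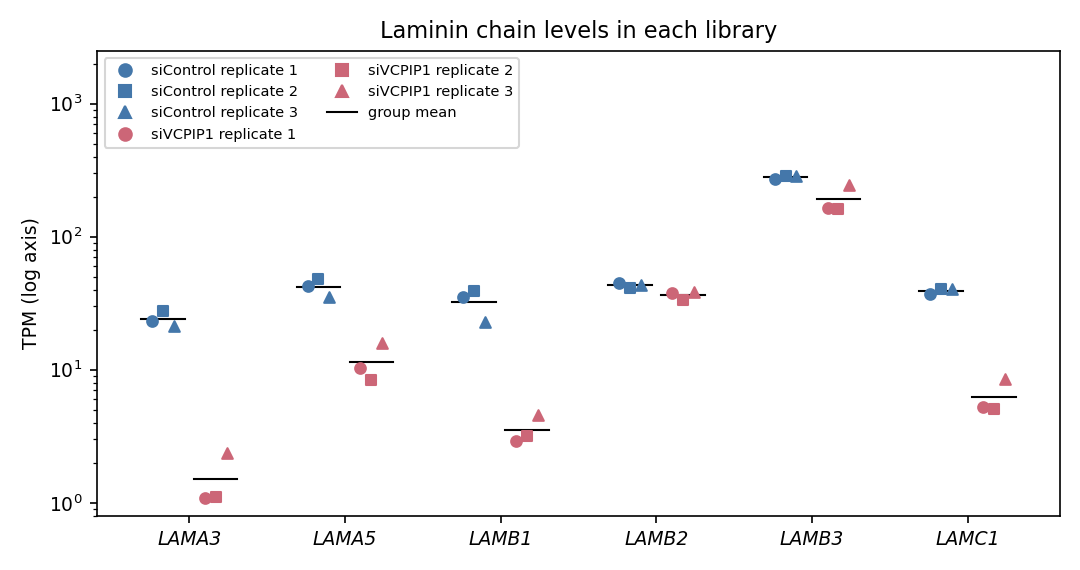
TPM on a log axis for the 6 members, with 1 point per library (blue siControl, red siVCPIP1, marker shape for the replicate number) and a bar at each group mean. LAMA3 shows the widest gap between the groups and LAMB2 the narrowest, and siVCPIP1 replicate 3 is the highest of its group for each chain shown.

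The split between laminin-332 and other laminins did not order the changes. The member with the deepest fall, LAMA3, and the called member with the shallowest, LAMB3, both belong to laminin-332, and the other laminins ranged from -2.87 (LAMB1) to -0.23 (LAMB2). Taken by type, alpha chains lay at -3.34 and -1.81, LAMC1, a gamma chain, at -2.50, and beta chains at -2.87, -0.58 and -0.23. Summed over the 6 members, TPM was 461.5 ± 18.5 in siControl and 250.4 ± 56.0 in siVCPIP1, with no overlap. In siVCPIP1 cells the order of levels became LAMB3, LAMB2, LAMA5, LAMC1, LAMB1 and LAMA3, and the only neighbours in it whose ranges overlapped were LAMA5 and LAMC1.

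The make-up of this sum was accordingly different. LAMB3 made up 59.4% to 63.5% of it in siControl and 74.4% to 77.9% in siVCPIP1. LAMB2 made up 8.48% to 9.86% and 12.1% to 16.9%. The 3 beta chains together made up 75.9% to 78.3% in siControl and 91.5% to 93.1% in siVCPIP1. LAMC1 went from 8.11% to 9.04% down to 2.34% to 2.71%, and LAMA3 from 4.75% to 5.69% down to 0.489% to 0.746%. For each of these shares, the ranges of the groups did not overlap. Shares sum to a constant, so a higher share of LAMB3 and LAMB2 mirrors the lower share of the rest.

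**Figure D2:**
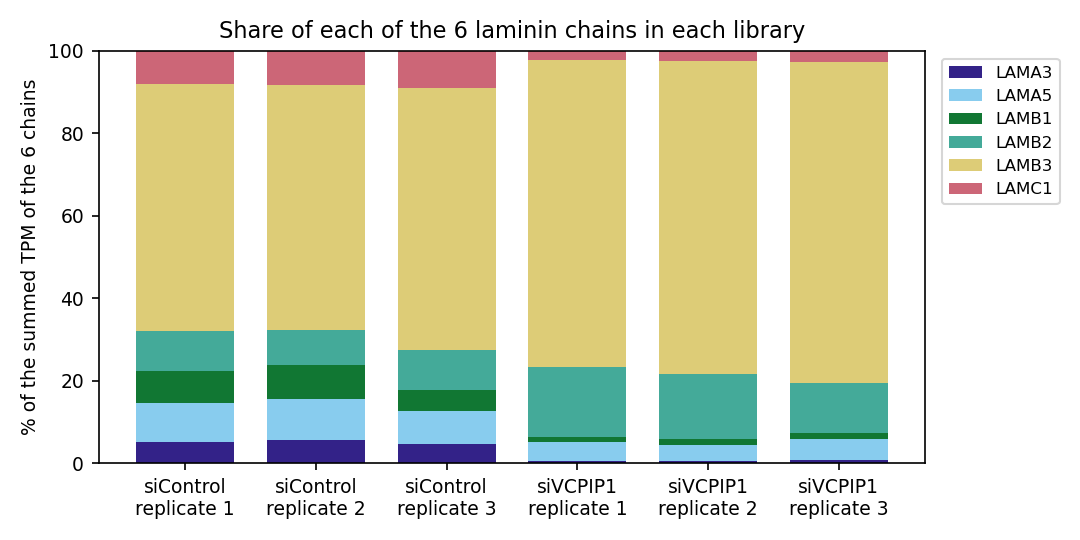
Stacked bars show the percent of the summed TPM of the 6 members held by each chain in each of the 6 libraries. LAMB3 holds 59.4% to 63.5% in the siControl libraries and 74.4% to 77.9% in the siVCPIP1 libraries, while LAMA3 shrinks to under 1%.

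Ranks within a library do not depend on any common scaling. LAMB3 ranked 508 to 523 of 15832 genes by TPM in siControl and 569 to 791 in siVCPIP1. LAMB2 moved up, from ranks 2829 to 3178 to ranks 2229 to 2516. LAMA3 moved down the furthest, from 4223 to 4642 to 7823 to 8218, followed by LAMB1 (3280 to 4446, then 6076 to 6430) and LAMC1 (3012 to 3268, then 5163 to 5203). LAMA5 moved from 2817 to 3326 to 3980 to 4360. The falls of LAMA3, LAMB1, LAMC1 and LAMA5 were thus visible in ranks as well as in TPM, while LAMB2 gained rank at a slightly lower TPM. The trend on GC content described further on does not cancel in ranks, and its part in these moves was not tested.

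Direction depended on the scaling for LAMB3 and LAMB2. Median-of-ratios scaling, which divides each library by its typical ratio to the average library, moved the median over all genes from -1.12 to -0.02 and called 42.7% of genes lower and 42.3% higher. Under it, 4 members were lower (LAMA3 -2.27, LAMB1 -1.65, LAMC1 -1.23 and LAMA5 -0.50) and both LAMB3 (0.79, limma, adjusted p = 0.00133) and LAMB2 (1.11, adjusted p = 0.000719) were higher. Quantile normalization, which gives all libraries the same distribution, called 38.8% lower and 42.2% higher. Under it, 5 members were lower, LAMB3 among them (-0.48, limma, adjusted p = 0.0173), and LAMB2 was higher (0.50, adjusted p = 0.00744). LAMA3 remained the lowest of the 6 under both, at -2.27 and -1.91.

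**Figure D3:**
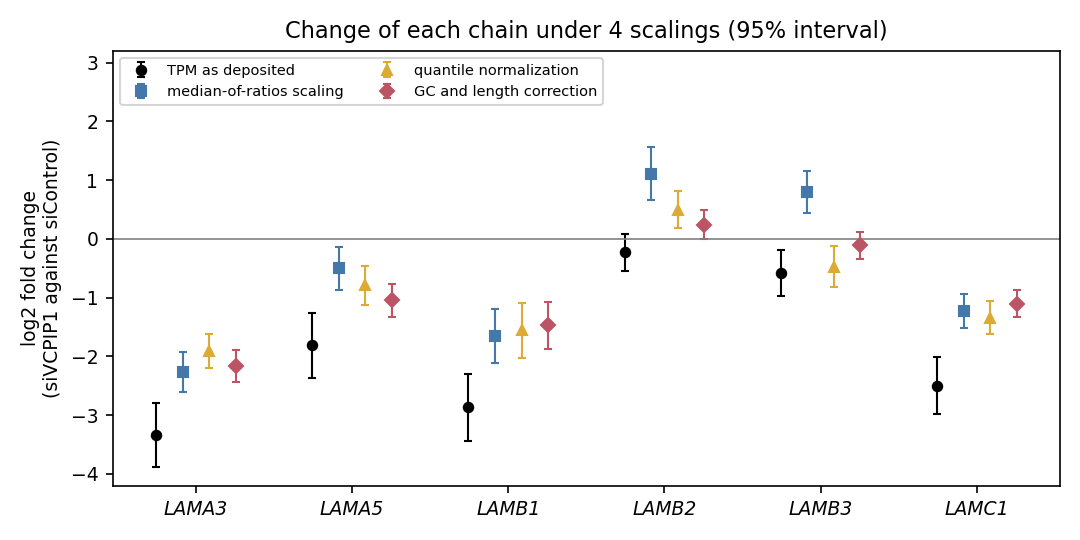
Log2 fold change with its 95% interval for each chain, with TPM as deposited and after 3 other treatments of the values. LAMA3, LAMA5, LAMB1 and LAMC1 lie below 0 in all 4, whereas LAMB3 and LAMB2 cross 0 depending on the scaling.

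Over all genes tested, the change in TPM moved with the GC content of the transcript, while the 6 members gave no single order. LAMC1, LAMB1 and LAMA3 have transcripts of 48.7%, 49.7% and 50.7% GC, and their log2 fold changes were -2.50, -2.87 and -3.34. LAMB3 and LAMB2, at 58.9% and 60.3% GC, changed by -0.58 and -0.23. Tested genes were ranked on GC and divided into 10 bins. In the bin of LAMC1 and LAMB1 the median was -1.41, in that of LAMA3 -0.94, in that of LAMB3 -0.13 and in that of LAMB2 0.21. The bin of LAMA3 is that of its 10661-nt form, which the correction for GC and length also used. Its 5671-nt form has 48.0% GC, inside the bin of LAMC1 and LAMB1, where the 5th percentile was -3.09. LAMA5 has the highest GC content of the 6, at 66.4%, and its change of -1.81, deeper than those of LAMB3 and LAMB2, stood beside a bin median of 0.47, with only 0.467% of the genes of that bin lower. For LAMA3 the share of its bin that was lower was 1.03%, and for LAMB1, LAMC1, LAMB2 and LAMB3 it was 7.10%, 14.5%, 28.3% and 30.7%. All 6 members lay below the median of their bin.

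When a smooth curve on GC content and transcript length was subtracted in each library, 31.8% of 10708 genes were called lower and 37.2% higher. LAMA3 (-2.16), LAMB1 (-1.47), LAMC1 (-1.10) and LAMA5 (-1.04) remained lower (limma, adjusted p from 3.33e-05 to 0.000204). LAMB3 (-0.11, limma, adjusted p = 0.344) and LAMB2 (0.24, adjusted p = 0.0801) were not called. LAMA5, with the smaller TPM fall but the higher GC content, then lay close to LAMC1. The part of GC content in the laminin values was not tested beyond this correction.

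**Figure D4:**
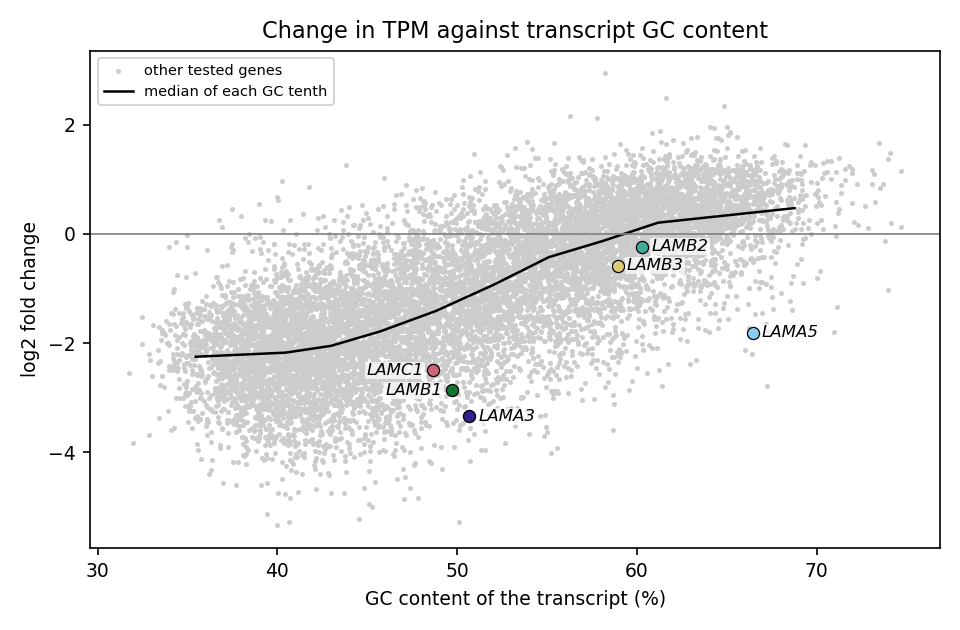
Log2 fold change with TPM as deposited against the GC content of 1 transcript per gene, with tested genes in grey, the median of each of 10 bins of genes by GC as a black line, and the 6 members in colour. All 6 chains lie below the line, LAMB2 and LAMB3 by the least and LAMA3 and LAMA5 by the most.

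The genes with the most similar pattern to each member were found by the root mean square difference, over the 6 libraries, between log2(TPM + 1) values set to their siControl mean, among 7735 other genes (mean TPM of 5 or more). For LAMA3 these were SNX14, YAP1 and DESI2 (differences of 0.03, 0.04 and 0.05). YAP1, the transcriptional coactivator named in the series title, changed by -3.33. The likeness was not kept after GC and length correction, where SNX14, YAP1 and DESI2 changed by -1.03, -1.39 and -1.25 and LAMA3 by -2.16. For LAMA5 they were BRD3, WWTR1 and DUSP7 (0.06 to 0.07). WWTR1, the paralog of YAP1 known as TAZ, changed by -1.78, or 0.35 after GC and length correction. BRD3 and DUSP7 then changed by -0.56 and -1.52, beside -1.04 for LAMA5. TTC37, WASHC4 and UHRF1BP1L were nearest to LAMB1, and SSR1, TPP1 and AGFG1 to LAMC1. After GC and length correction the former changed by -0.85, -0.70 and -0.64, beside -1.47 for LAMB1. The latter changed by -0.60, -1.14 and -0.49, beside -1.10 for LAMC1. PLOD1, CAVIN1 and SUFU were nearest to LAMB2, and MTCH1, INTS3 and IDH2 to LAMB3. With the same correction, the first group changed by 0.02, 0.08 and 0.54 (LAMB2 0.24). The second changed by -0.65, 0.48 and -0.04 (LAMB3 -0.11). Among the members, LAMB2 and LAMB3 were nearest to each other (0.30), and LAMA3 and LAMB2 were the farthest apart (2.21). These matches stand beside the 66.0% of all genes tested that were lower in the same libraries.

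The receptors of laminins were split in the same libraries. Of 8 receptor genes, 3 were lower and 1 was higher, with a median of -0.23 beside -1.12 for all genes, 66.0% of which were lower and 15.0% higher. Under median-of-ratios scaling 3 were lower and 5 higher. ITGB1, the beta1 integrin subunit that pairs with alpha3 and alpha6 in laminin receptors, fell from 354.9 ± 34.6 to 9.12 ± 6.89 TPM. With TPM as deposited, its log2 fold change of -5.34 was the lowest of all 10966 genes tested. ITGA6, the alpha6 subunit, fell from 63.2 ± 15.1 to 2.08 ± 1.16 TPM (-4.42 on the log2 scale, limma, adjusted p = 2.0e-05). ITGB4, its hemidesmosomal partner and the most abundant of the 8, was at 1238.23 to 1458.50 TPM in siControl and 1046.37 to 1249.31 TPM in siVCPIP1, and was not called (-0.22, limma, adjusted p = 0.125). ITGA3, the alpha3 subunit, was not called either (148.3 ± 10.2 and 150.6 ± 11.5 TPM), but was higher under median-of-ratios scaling (1.39, limma, adjusted p = 0.000297) and GC and length correction (0.38, adjusted p = 0.0113). DAG1, which encodes dystroglycan, a receptor of alpha chain domains, fell from 35.4 ± 4.57 to 5.27 ± 1.13 TPM (-2.54). After GC and length correction ITGB1, ITGA6 and DAG1 remained lower (-3.07, -2.46 and -1.61). EPCAM, at -3.09, then lay below ITGB1. ITGA7, at 2.63 and 2.03 TPM, and BCAM, a receptor of alpha5 laminins at 23.3 and 28.4 TPM, were not called. Both were higher under median-of-ratios scaling (0.72 and 1.59) and quantile normalization (1.21 and 1.28), and ITGB4 was higher under the former (1.16) and lower under the latter (-0.33). CD151, the tetraspanin bound to laminin-binding integrins, rose from 479.0 ± 72.9 to 733.5 ± 68.3 TPM (0.62, limma, adjusted p = 0.00321), but was not called once GC and length were corrected for (0.15, adjusted p = 0.194).

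The hemidesmosome list, which shares ITGA6, ITGB4 and CD151 with the receptors, was split as well, with 3 of 6 lower and 2 higher, beside 66.0% and 15.0% of all genes. COL17A1, the transmembrane collagen XVII, fell from 21.1 ± 1.82 to 5.72 ± 1.54 TPM (-1.74), and DST, which encodes the plakin BPAG1, from 8.18 ± 0.86 to 0.92 ± 0.40 TPM (-2.27). PLEC, the plakin plectin that ties ITGB4 to keratin filaments, rose from 91.9 ± 9.69 to 143.3 ± 10.8 TPM (0.64, limma, adjusted p = 0.00204). The genes of the list that fell have transcripts of 42.2% to 55.9% GC, and those that rose, 63.1% and 67.0%. ITGB4, which was not called, has 63.7%. After GC and length correction, COL17A1 (-0.88), DST (-0.60) and ITGA6 (-2.46) remained lower and PLEC higher (1.80). CD151 (0.15) and ITGB4 (0.05) were then not called.

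Of 16 other basement membrane genes in the table, 9 were under 1 TPM in every library, among them COL4A1 and COL4A2 of the main collagen IV network, and 7 were tested. Of these, 5 were lower and 0 higher, near the 66.0% of all genes that were lower, with a median of -1.37. Under median-of-ratios scaling 2 were lower and 2 higher. NID1, nidogen-1, which links laminin gamma1 to collagen IV, fell from 15.3 ± 2.49 to 0.92 ± 0.59 TPM (-3.12). NTN4, netrin-4, which binds laminin gamma1 and disturbs laminin networks, fell from 5.91 ± 1.12 to 0.38 ± 0.22 TPM (-2.32). The heparan sulfate proteoglycans HSPG2 (perlecan) and AGRN (agrin, which binds laminin) fell, with log2 fold changes of -1.73 and -1.37, although neither was called after median-of-ratios scaling (-0.41 and -0.03, limma, adjusted p = 0.102 and 0.862). COL18A1 also fell, though not under median-of-ratios scaling (0.36, limma, adjusted p = 0.107), and COL7A1 and TINAGL1 were not called as deposited but were higher under median-of-ratios scaling (1.17 and 1.55). These 3 complete the 7 and were named after their values were seen. HSPG2, AGRN and COL18A1 have transcripts of 64.5% to 67.6% GC, like LAMA5. COL7A1, which was not called (-0.14), lies in the same range at 64.8%.

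Enzymes that build the laminin-binding glycan of dystroglycan were lower in 6 of 8 cases and higher in 0, near the 66.0% of all genes that were lower, with a median of -0.59. The balance was the opposite under median-of-ratios scaling (3 lower and 5 higher) and quantile normalization (2 lower and 5 higher). RXYLT1 (-2.38), B3GALNT2 (-2.24), B4GAT1 (-1.64) and POMGNT2 (-0.62) changed the most of these. POMGNT2 was higher under median-of-ratios scaling (0.65) and quantile normalization (0.76), and its call was lost when any 1 of the libraries other than siVCPIP1 replicate 3 was left out (limma, adjusted p from 0.0564 to 0.116). RXYLT1 was not called with GC and length corrected for (-0.12), nor B4GAT1 after quantile normalization (-0.21). Of 4 proteases tested that cut laminin chains or activate such proteases, 3 were lower, near the share over all genes (66.0%). MMP14, a membrane-bound metalloprotease, fell from 147.6 ± 3.48 to 35.7 ± 20.5 TPM, and the log2 fold changes were -1.34 for FURIN, a proprotein convertase, and -2.05 for MMP7. FURIN was not called under median-of-ratios scaling, nor MMP7 under the GC and length correction. BMP1, which trims laminin chains after secretion, was not called as deposited (42.6 ± 2.72 and 46.8 ± 3.72 TPM), was higher under all 3 other treatments of the values (0.26 to 1.48) and was named after its value was seen. Over the 5 lists together, 19 of 30 genes were lower and 2 higher, near the 66.0% lower and 15.0% higher of all genes, with a median of -1.17 beside -1.12. With median-of-ratios scaling, 12 of the 30 were lower and 14 higher, beside 42.7% and 42.3% of all genes. With quantile normalization 16 were lower and 12 higher, beside 38.8% and 42.2%, and with the correction for GC and length 16 and 6, beside 31.8% and 37.2%.

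**Figure D5:**
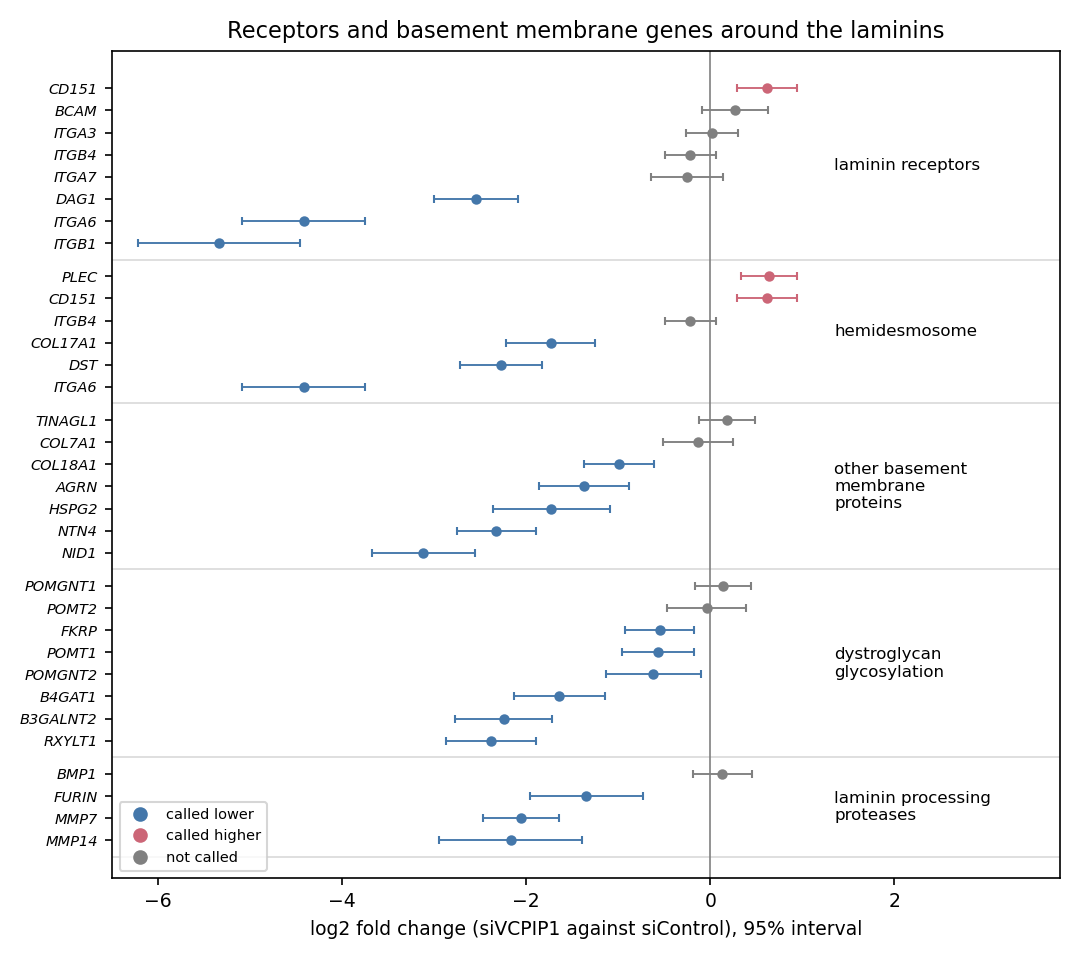
Log2 fold change with its 95% interval for each tested gene of 5 lists around the laminins, with TPM as deposited, coloured by the call (blue lower, red higher, grey not called). ITGB1 and ITGA6 lie furthest to the left, and CD151 and PLEC are the only genes called higher.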

How the data were processed

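The authors deposited 1 table of TPM per gene symbol for 6 RNA-seq libraries, with 2 decimals (unit per the file headers). GRCh38.p13 is the build named, per the submitters' processing notes. Aligner, counter, annotation and strand setting: not given in the sources used here. Since TPM does not carry read numbers, depth is unknown, and counting intervals cannot be given.

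Columns were matched to samples by name (siControl 3, siVCPIP1 3). After the filter (mean TPM of 1 or more), log2(TPM + 1) was fitted on group with limma 3.58.1 (R 4.3.3, trended eBayes, two-sided), and p-values were adjusted by Benjamini-Hochberg over the 10966 genes (threshold 0.05). Fold changes on this scale understate changes of low genes. The fit was tested on simulated data. Transcript GC and length were read from GENCODE 29, using 1 protein-coding transcript per gene (found for 10708 genes). The correction for them subtracted, per library, splines of 5 (GC) and 3 (length) degrees of freedom with their interaction. Other alternatives were a pseudocount of 0.1 TPM, no filter or a filter of 5 TPM, median-of-ratios scaling, quantile normalization, no trend, a replicate block and leaving out each library.

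Some results are not reported here, and list counts are over the genes reported. The members and lists were chosen with earlier results of these data known. Genes named are the members, VCPIP1, the other laminins, all tested receptor and hemidesmosome genes, up to 4 called genes with the largest change from each other list, and the 3 genes most like each member. The ductal epithelial markers, LUM, COL1A1, DCN and PDGFRA come from the marker lists and were named after their values were seen. Endothelial, immune and acinar or islet marker lists were also read: their summed TPM was 0.42 to 1.44, 122.0 to 159.2 (almost all CD68) and 0.17 to 1.03 per library.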

Additional observations from a re-analysis of the deposited data

How the results depend on the processing

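LAMA3, LAMA5, LAMB1 and LAMC1 were lower and called under every alternative run. LAMB2 reversed under median-of-ratios scaling (1.11), quantile normalization (0.50) and GC and length correction (0.24). LAMB3 reversed under median-of-ratios scaling (0.79) and was not called with GC and length corrected for (-0.11, adjusted p = 0.344 by limma). These 3 alternatives moved the median over all genes from -1.12 to -0.02, 0.04 and 0.06. Leaving out each library gave log2 fold changes of -3.57 to -3.23 for LAMA3, -2.05 to -1.63 for LAMA5, -3.09 to -2.72 for LAMB1, -0.27 to -0.18 for LAMB2, -0.77 to -0.47 for LAMB3 and -2.71 to -2.39 for LAMC1. Of these fits, only the one without siVCPIP1 replicate 1 lost the LAMB3 call.

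Genes called lower numbered 7241 with TPM as deposited, 4677 under median-of-ratios scaling, 4258 under quantile normalization, 3403 under GC and length correction and 4679 with a filter of 5 TPM, which tests fewer genes. Genes called higher numbered 1646, and 4641, 4625 and 3981 under the first 3 of these alternatives. Without each library in turn, the counts were 6532 to 7853 lower and 1237 to 1845 higher. In the lists around the laminins, 2 genes were higher as deposited, against 14, 12 and 6 under the same 3 alternatives, and 19 were lower, against 12 under median-of-ratios scaling. The cause of these differences was not tested.

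Other named genes changed sign as follows. Under median-of-ratios scaling the log2 fold changes were 0.72 for ITGA7, 1.16 for ITGB4, 1.13 for PLOD1, 1.14 for CAVIN1, 1.04 for SUFU, 0.81 for MTCH1, 0.66 for INTS3, 0.78 for IDH2, 0.65 for POMGNT2, 0.36 for COL18A1 and 1.17 for COL7A1. Under quantile normalization they were 1.21 for ITGA7, 0.0546 for CAVIN1, 1.22 for SUFU, 0.86 for INTS3, 0.76 for POMGNT2 and 0.9975 for COL7A1. Under GC and length correction they were 0.27 for VCPIP1, 0.0735 for ITGA7, 0.0508 for ITGB4, -0.14 for BCAM, 0.35 for WWTR1, 0.0232 for PLOD1, 0.0822 for CAVIN1, 0.54 for SUFU, 0.48 for INTS3, 0.41 for COL7A1 and -0.0464 for TINAGL1. ITGA3 ranged from -0.0184 to 0.0851 without each library.

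Whether the replicate numbers pair the libraries was not settled. Deviations of libraries with the same number correlated at 0.53, -0.27 and 0.16, and not every library correlated best with its own number. With 3 libraries per group, each set to its group mean, these correlations constrain one another and cannot exclude pairing. With a replicate block, 7085 genes were lower and 1586 higher, and no call among the members changed. Depth is unknown, so a low TPM, as for LAMA3 in siVCPIP1, has no counting interval.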
